A study of Mus musculus with 3 samples.

Results

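The clustered histone genes are the genes of the mouse clusters Hist1 to Hist4 that code for the linker histone H1 and the core histones H2A, H2B, H3 and H4. They were taken by symbol, as genes named Hist1h to Hist4h with at least 1 coding transcript, and 67 of the 55536 annotated genes met that rule. They comprise 6 genes of H1, 18 of H2A, 18 of H2B, 12 of H3 and 13 of H4. Hist1 on chromosome 13 holds 54 of them, Hist2 on chromosome 3 holds 10, Hist3 on chromosome 11 holds 2, and Hist4 on chromosome 6 holds 1. The symbols Hist1h2aj, Hist1h2al and Hist3h2bb-ps have no coding transcript in the tables, so these 3 genes were left out.

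The series measured total RNA, after depletion of ribosomal RNA, in the cytosolic fraction of primary macrophages grown from the bone marrow of C57BL/6J mice. The 1 group has 3 libraries, numbered as biological replicates 1, 2 and 3. Lipid A, the membrane anchor of lipopolysaccharide and a ligand of Toll-like receptor 4, was given to all cells at 100 ng/ml for 12 h. They were then kept without it for 12 h and stimulated again with 100 ng/ml for 20 min. No library of untreated cells or of the nuclear fraction was analysed here, so no value below is a response to Lipid A. The labels give the 3 libraries 1 shared donor entry and record neither sex nor age, and every SD and p-value therefore measures only how these libraries differ, which may be technical.

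Between 32055936.84 and 47864978.1 estimated reads per library fell on annotated genes, and the clustered histone genes received 18863, 34459.04 and 31653.11 of them in replicates 1, 2 and 3. Levels are in TPM, a measure of transcript abundance that divides a gene's reads by its effective length, the number of positions at which a fragment can start, and scales all entries of a library to the same total. The 7SL RNA of the signal recognition particle took 55.5% to 62.9% of all TPM, which lowers the TPM of every other gene. All 8 macrophage markers were at 1 TPM or more in every library, led by Lyz2 at 3120 ± 176 TPM (SD, n = 3), against 3 of 8 neutrophil, 1 of 7 B cell, 1 of 7 T and NK cell and 0 of 6 erythroid markers.

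Histones package DNA: H2A, H2B, H3 and H4 form the core around which DNA is wound, and H1 binds where the DNA enters and leaves it. The clustered genes are known as replication-dependent, because dividing cells make most of their mRNA in S phase. Their mRNAs are known to lack introns and, in most cases, a poly(A) tail, and to end instead just after a short stem-loop that the stem-loop binding protein recognises.

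The stem-loop is shown here because it is the shared mark of these mRNAs and because the annotated models differ in where they end relative to it. The search asked for a stem of 6 bases that begins with GG, a loop of 4 bases that begins with TTT, and a perfect second strand of the stem, read on the transcript's own strand after the stop codon of a GENCODE M21 transcript. It was met in 44 of the 67 genes (65.7%), against 28 of 21884 other coding genes (0.128%) with a match anywhere in a transcript. H2afx, the gene of the DNA damage variant H2A.X, is 1 of those 28. The 44 genes carry 6 forms. The examples below are on mm10, 5′ to 3′ along the mRNA, with the stem-loop in capitals.
Hist2h2aa2, chr3:96239779-96239804 (-): aaaaaGGCTCTTTTCAGAGCCaccca
Hist1h4h, chr13:23531453-23531478 (+): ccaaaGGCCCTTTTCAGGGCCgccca
Hist1h2bb, chr13:23747198-23747223 (+): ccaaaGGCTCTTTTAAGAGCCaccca
Hist1h4b, chr13:23757361-23757386 (+): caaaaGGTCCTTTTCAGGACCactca
Hist1h4i, chr13:22040961-22040986 (-): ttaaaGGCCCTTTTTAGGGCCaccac
Hist2h2ac, chr3:96220413-96220438 (-): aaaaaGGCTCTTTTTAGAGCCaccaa
The form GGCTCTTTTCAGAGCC occurs in 26 genes, 3 of H1, 10 of H2A, 8 of H2B and 5 of H3, and in 0 of H4. The form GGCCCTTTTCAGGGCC occurs in 7 genes, all of H4. The other forms occur in 6 genes (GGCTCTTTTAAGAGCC), 2 H4 genes (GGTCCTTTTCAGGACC), 2 H4 genes (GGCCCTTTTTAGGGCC) and 1 H2A gene (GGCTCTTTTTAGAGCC). All 11 stem-loops found in H4 genes thus have a stem other than that of H1, H2A, H2B and H3.

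The coding regions of these genes are near copies, and this bears on every level given for a single gene. All 13 H4 genes encode the same protein of 103 residues, counted with the first methionine, while their coding sequences differ by a median of 19 and by up to 45 of 309 bases. The first 30 coding bases of the 5 H4 genes with the highest TPM show this, with capitals marking bases that differ from the first line (mm10, 5′ to 3′ along the mRNA).
Hist1h4m, chr13:21811784-21811813 (+): atgtctggtcgtggcaaaggaggaaaaggc
Hist1h4k, chr13:21750476-21750505 (-): atgtctggCAgAggTaaGggCggGaaaggG
Hist1h4h, chr13:23531115-23531144 (+): atgtctggtcgtggcaaGggCggTaaaggT
Hist1h4n, chr13:21832129-21832158 (-): atgtctggtcgtggcaaaggaggaaaaggc
Hist1h4b, chr13:23757021-23757050 (+): atgtctggtcgCggcaaGggaggaaaaggc
Hist1h4m and Hist1h4n are identical over the whole coding sequence, and Hist1h4k differs from them at 8 of these 30 bases. The 67 genes encode 29 distinct proteins in all: 6 of H1, 9 of H2A, 11 of H2B, 2 of H3 and 1 of H4.

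Summed over its genes, H2A had the highest level and H4 the next. The H2A sum was 268, 307 and 273 TPM in replicates 1, 2 and 3, or 282.7 ± 21.4 TPM (SD, n = 3). The H4 sum was 234, 269 and 268 TPM, or 256.9 ± 20.2 TPM. The ranges of H2A and H4 overlapped by a small margin, and H2A was higher than H4 within each library. The H2B sum was 166, 192.5 and 143 TPM, or 167.2 ± 24.7 TPM, below H4 in every library. The H3 sum was 43.6, 80.0 and 65.8 TPM, or 63.2 ± 18.3 TPM, and the H1 sum 50.1, 62.0 and 54.9 TPM, or 55.7 ± 5.99 TPM. H1 and H3 did not differ beyond their spread, since H1 was higher in replicate 1 and H3 in replicates 2 and 3. All 67 genes together made up 761, 911 and 805 TPM, which is 0.0761%, 0.0911% and 0.0805% of each library's TPM. Fewer cells that express a gene and less RNA per cell cannot be told apart in such bulk libraries.

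The order of the families depends on the scale. By TPM, H2A held 34.3 ± 0.79%, H4 31.2 ± 1.91%, H2B 20.2 ± 2.14%, H3 7.57 ± 1.61% and H1 6.74 ± 0.13% of the clustered histone genes (SD, n = 3). By estimated reads, H2A held 29.3%, H2B 24.6%, H4 21.2%, H1 18.7% and H3 6.11%. H1 thus moved from the smallest share to one close to that of H4, and H2B passed H4. H3 stayed far below H4 on both scales: the ratio of H4 to H3 was 5.35, 3.36 and 4.07 by TPM (4.26 ± 1.01) and 4.54, 2.80 and 3.48 by reads. The ratio of H2A to H2B was 1.71 ± 0.17 by TPM and 1.20 ± 0.16 by reads. The 4 core histones are known to assemble in equal numbers, and their mRNA sums were unequal on both scales.

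**Figure D1:**
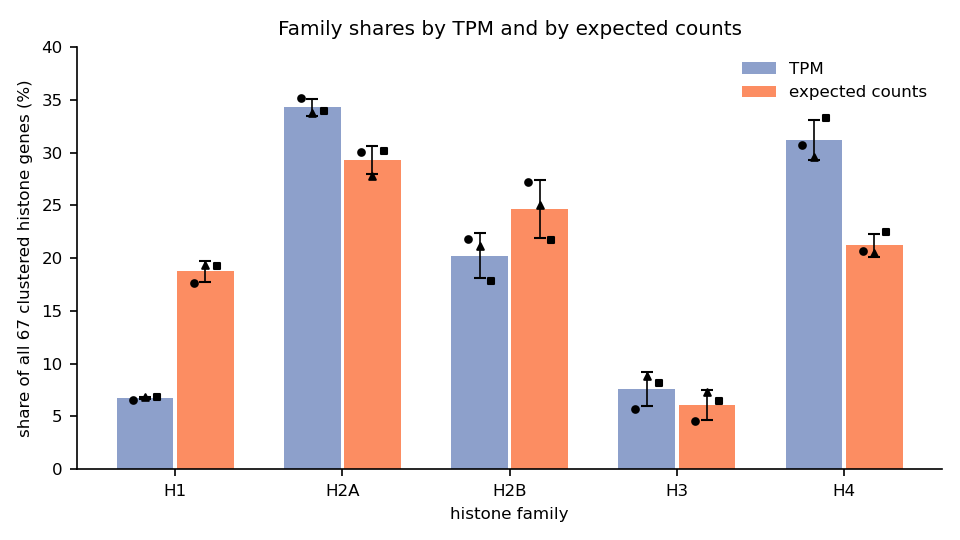
Share of the summed level of the 67 clustered histone genes held by each family (y axis, %), by TPM and by estimated reads; bars are means of 3 libraries, error bars the SD, and circles, triangles and squares are replicates 1, 2 and 3. H1 takes 6.74% by TPM and 18.7% by reads, while H3 is low on both scales.

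By cluster, Hist1 gave 584.5 ± 63.5 TPM, Hist2 220.4 ± 15.8 TPM, Hist3 20.0 ± 1.77 TPM and Hist4 0.807 ± 0.307 TPM (SD, n = 3). Hist2, with 10 genes, held 26.7% of the TPM, and Hist1, with 54 genes, held 70.7%. Hist3, with 2 genes, held 2.44% of the TPM and 9.60% of the reads, nearly all from Hist3h2a. The Hist1 genes lie in 2 stretches of chromosome 13 (mm10), 23 genes at chr13:21715763-22043676 with a sum of 249.4 ± 33.0 TPM and 31 genes at chr13:23531050-23934851 with 335.1 ± 33.2 TPM. The median level of a gene was 6.69 TPM in the first stretch and 5.0 TPM in the second.

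Most clustered histone genes were measured above a low level. A level of 1 TPM or more in every library was reached by 51 of 67 (76.1%), against 41.3% of all 22028 coding genes. The 51 were 4 of 6 for H1, 12 of 18 for H2A, 14 of 18 for H2B, 9 of 12 for H3 and 12 of 13 for H4. Their median level was 7.52 TPM, and that of all coding genes that met the same rule was 8.48 TPM, so the clustered genes passed this level more often, with a median a little below that of other genes that passed. A level of 10 TPM or more in every library was reached by 21 genes, against 16.9% of coding genes, and 8 genes stayed below 1 TPM in every library, against 56.5% of coding genes. Hist1h2aa, Hist1h2ao and Hist1h2ba had 0 reads in all libraries. The limit of 3 reads that a count of 0 allows corresponds to 0.374 TPM for Hist1h2aa, 0.242 TPM for Hist1h2ao and 0.388 TPM for Hist1h2ba in replicate 1, the shallowest library; such limits cover counting error only. Hist1h2ao shares 93.8% of its 31-base words with Hist1h2ap, and its deposited upper bound in that library was 1.14 TPM and its level in the second quantification 0.301 TPM, so its limit is not set by counting alone. Hist1h2aa and Hist1h2ba are known for their expression in testis. Hist1h1t, the testis linker histone, was at 0.06, 0.02 and 0.02 TPM.

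**Figure D2:**
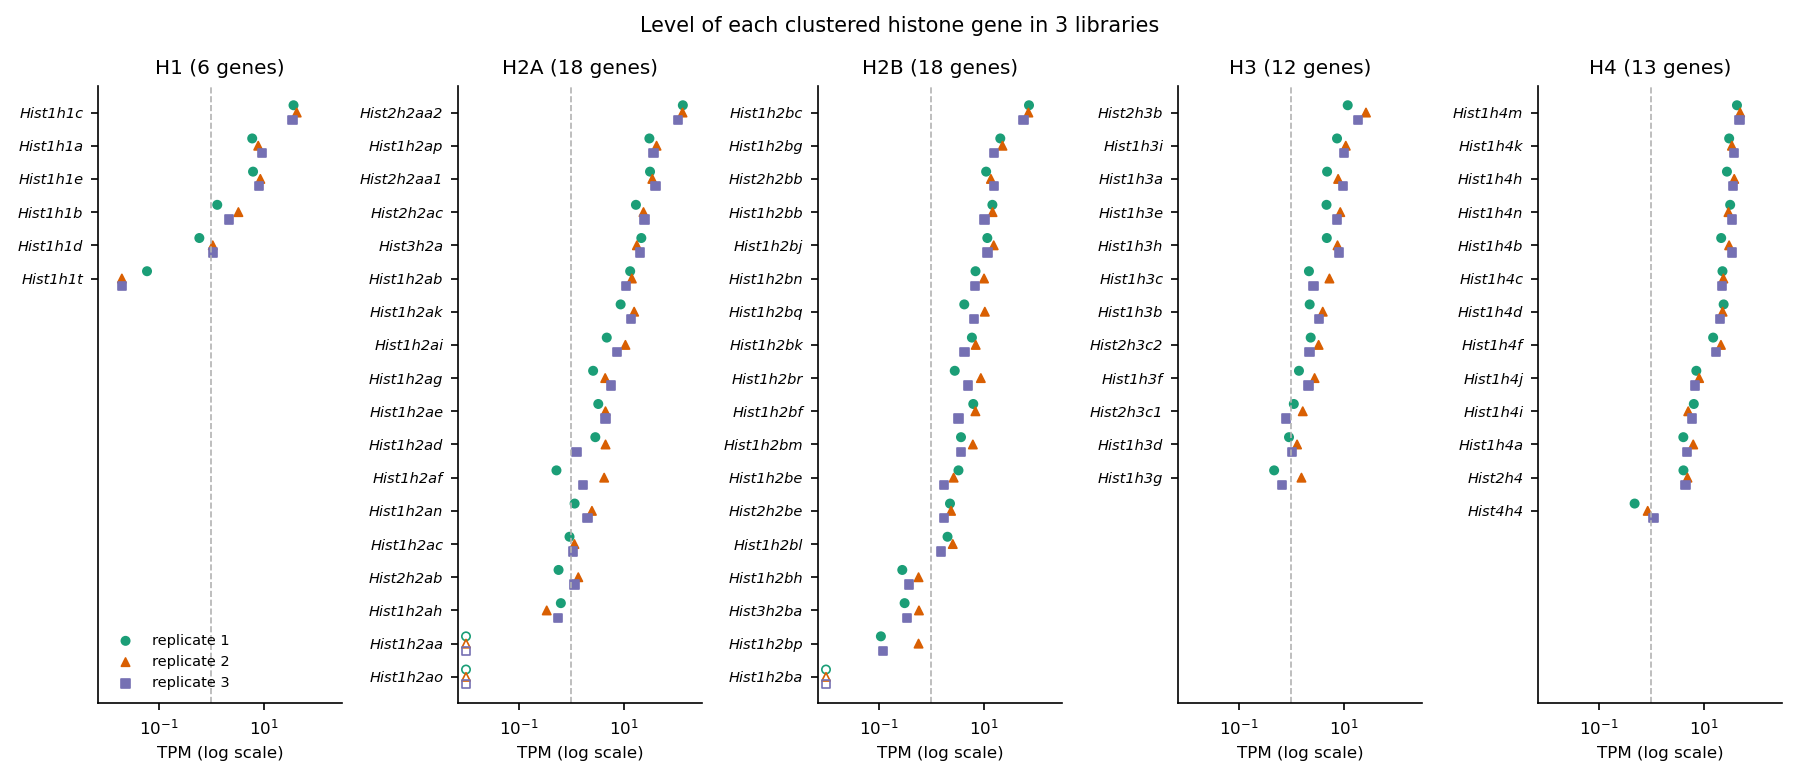
Level of each clustered histone gene (x axis, TPM, log scale) in each library, grouped by family; circles, triangles and squares are replicates 1, 2 and 3, open symbols at 0.01 stand for a value of 0, and the dashed line marks 1 TPM. Within H1, H2A and H2B 1 gene stands above the rest, while the highest H4 genes lie close together.

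The linker histone sum came mainly from Hist1h1c, the gene of H1.2 (chr13:23738808-23740367, + strand, a single exon). It was at 36.1, 41.5 and 34.6 TPM and gave 67.3 ± 4.52% of the H1 TPM (SD, n = 3). Hist1h1a, the gene of H1.1, was at 5.94, 7.72 and 9.20 TPM, and Hist1h1e, the gene of H1.4, at 6.16, 8.47 and 7.88 TPM. These 2 genes overlapped each other and stayed well below Hist1h1c in every library. Hist1h1b, the gene of H1.5, was at 1.29, 3.25 and 2.15 TPM. Hist1h1e shares exon sequence on the same strand with the long model of Hist1h2be, so reads there could be given to either gene.

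In H2A, a pair of identical copies in Hist2 led. Hist2h2aa2 (chr3:96239749-96240276, - strand, a single exon) was at 129.9, 128 and 104 TPM and held 42.8 ± 5.30% of the H2A TPM (SD, n = 3). Its copy Hist2h2aa1 (chr3:96245497-96246082, + strand) was at 30.99, 34.3 and 39.5 TPM. The copies have the same 390 coding bases, and every 31-base word of each also occurs in another annotated gene, so the split between them is uncertain. Each also overlaps an antisense gene, Gm20632 or Gm20633, of at most 198 reads in a library. Hist2h2aa1 further shares exon sequence on the same strand with Gm20634, a noncoding gene with 537, 589 and 830 reads against 547, 995 and 1192 for Hist2h2aa1. Together they made 155.7 ± 10.5 TPM, 55.2 ± 4.27% of H2A by TPM and 42.2% by reads. Hist1h2ap, in Hist1, was at 30.1, 41.2 and 35.9 TPM, and Hist2h2ac at 16.7, 23.3 and 24.3 TPM. Hist1h2ap belongs to 9 Hist1 genes that encode 1 H2A protein, and these held 24.6 ± 2.55% of H2A. Hist3h2a ranked below these 4 genes by TPM at 21.2, 17.4 and 20.0 TPM but first by reads, with 32.5% of the H2A reads, on a model with a mean effective length of 1919 bases against 301 for Hist2h2aa2.

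In H2B, Hist1h2bc (chr13:23684199-23692908, + strand, 2 exons) led with 71.0, 69.1 and 55.7 TPM, 39.2 ± 3.47% of the H2B TPM and 62.3% of its reads. Its annotated model of 1156 bases holds no match to the stem-loop search after the stop codon. Hist1h2bg was at 20.2, 22.3 and 15.6 TPM, Hist2h2bb at 10.9, 13.4 and 15.2 TPM, and Hist1h2bb at 14.3, 14.4 and 10.2 TPM. Hist2h2bb and Hist1h2bb overlapped, and Hist2h2bb was the only one of these 4 genes with its highest value in replicate 3. Hist1h2bc, Hist1h2bg and Hist1h2be encode the same protein and together held 52.3 ± 4.23% of H2B by TPM (SD, n = 3) and 75.8% by reads. A further 6 genes that encode another H2B protein, which differs from it by 1 residue, held 24.01 ± 3.77%.

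In H3, Hist2h3b was highest at 11.7, 26.0 and 18.4 TPM, 29.1 ± 2.99% of the family. Hist1h3i was at 7.33, 10.8 and 9.84 TPM, Hist1h3a at 4.75, 7.69 and 9.58 TPM, and Hist1h3e at 4.63, 8.45 and 7.34 TPM. All 4 were lowest in replicate 1. Hist2h3b and the H2B gene Hist2h2bb lie within the antisense gene Gm20628, which had 244, 361 and 386 reads, and without a stated strand setting the reads may not be told apart. Hist1h3g was the lowest of the family at 0.47, 1.55 and 0.67 TPM. The 12 genes encode 2 proteins that differ by 1 residue: 8 genes, led by Hist2h3b, held 61.2 ± 4.15% of the H3 TPM and 4 genes, led by Hist1h3i, held 38.8 ± 4.15% (SD, n = 3).

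In H4, the level was spread over many genes. Hist1h4m was at 41.9, 48.2 and 46.9 TPM, which is 17.8 ± 0.25% of the family (SD, n = 3). Hist1h4k was at 29.8, 33.7 and 36.8 TPM, Hist1h4h at 27.1, 37.2 and 35.5 TPM, and Hist1h4n at 31.2, 28.9 and 33.5 TPM. The last 3 overlapped, while Hist1h4m lay above each of them in every library. That lead depends on the quantification: in the authors' second one, described below, Hist1h4k lay above Hist1h4m in every library. The ratio of the second to the first, centred as described there, was 1.49 for Hist1h4k and 0.922 for Hist1h4m. Hist4h4, the single gene of the fourth cluster, was the lowest at 0.48, 0.85 and 1.09 TPM. By reads Hist1h4d came first with 24.1% of the family, although by TPM it was at 23.4, 22.4 and 20.2 TPM. The identical copies Hist1h4m and Hist1h4n together gave 59.4 ± 2.72% of their sum to Hist1h4m.

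The clustered genes were compared with histone genes outside the clusters, most of which code for variants that are known to be made throughout the cell cycle. H2afx, which has a match to the stem-loop search, is on this list. Of the 11 genes listed, 8 were at 1 TPM or more in every library. H3f3a and H3f3b, which both code for H3.3, were at 301, 275 and 213 TPM and at 219, 183 and 209 TPM. H2afz, the gene of H2A.Z, was at 44.0, 41.8 and 37.6 TPM, and H1fx was the lowest of the list at 0.02, 0.05 and 0.05 TPM. Clustered genes held 12.0 ± 3.77% of the TPM of all H3 genes listed, against 74.3 ± 1.98% for H2A and 68.3 ± 2.29% for H1 (SD, n = 3). By reads these shares were 4.23%, 52.1% and 61.2%, so clustered H3 was a small part of H3 mRNA on both scales.

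The machinery of histone mRNA was present at low to moderate levels. Of 8 genes for the transcription of clustered histone genes, 6 were at 1 TPM or more in every library. The 3 highest were the cell cycle factor E2f1 at 5.47, 5.62 and 6.32 TPM, the kinase Cdk2 at 4.85, 4.59 and 4.84 TPM, and Casp8ap2, whose protein sits in the nuclear body at histone genes, at 4.55, 2.95 and 4.48 TPM. The lowest was the cyclin gene Ccne2 at 0.50, 0.49 and 0.71 TPM. Of 13 genes for the processing and decay of histone mRNA, 11 passed. The highest were Sympk, the scaffold of the cleavage complex, at 22.1, 23.2 and 24.9 TPM, Lsm10, a protein of the U7 particle, at 15.8, 14.8 and 11.6 TPM, and Srrt, which binds the cap complex, at 15.2, 9.91 and 13.2 TPM. Zfp473, a zinc finger gene of this list, was the lowest at 0.12, 0.18 and 0.12 TPM. Of 14 histone chaperones, 13 passed. Npm1, which codes for nucleophosmin, was at 67.5, 74.4 and 69.8 TPM. The H3.3 chaperone Daxx was at 74.8, 38.7 and 43.0 TPM, the H2A and H2B chaperone Nap1l1 at 28.3, 27.7 and 28.5 TPM, and Asf1b, for H3 and H4, was the lowest at 1.00, 1.19 and 1.21 TPM.

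Genes of S phase and division were mostly detected. Of 16 such genes, 12 passed the same level. The gene of the sliding clamp of DNA replication, Pcna, was at 69.6, 62.3 and 62.9 TPM, and the helicase subunits Mcm6 and Mcm3 were at 10.4, 9.29 and 15.3 TPM and at 6.87, 6.72 and 11.0 TPM. The cyclin gene Ccna2 was the lowest at 0.46, 0.54 and 0.40 TPM. The list summed to 119, 108 and 131 TPM.

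Most clustered histone genes were highest in the same library. Of the 51 genes at 1 TPM or more, 35 had their highest TPM in replicate 2 (68.6%), against 17.3% of coding genes that met the same rule. Of the 16 S phase genes, 2 had their highest TPM in replicate 2. After each library was rescaled to the same total over coding genes, 38 of the 51 were highest in replicate 2, against 35.1% of coding genes, and 38 were lowest in replicate 1 (74.5%), against 52.1% of coding genes. On this scale 4 of the 16 S phase genes were highest in replicate 2 and 12 in replicate 3, against 35.1% and 45.0% of coding genes. Of the 16, 14 were lowest in replicate 1, against 52.1% of coding genes, and their sum was 363, 395 and 472. After rescaling, the S phase list was thus lowest in replicate 1, as most histone genes were, but highest in replicate 3. By TPM as deposited its sum was 119, 108 and 131, lowest in replicate 2, and 6 of its genes were lowest in replicate 1. Coding genes took 32.7%, 27.4% and 27.8% of the TPM in replicates 1, 2 and 3. On read counts normalised with edgeR's TMM factors, 45 of the 57 clustered genes kept by the filter on low counts were highest in replicate 2, against 35.1% of all 12372 genes kept, and 42 were lowest in replicate 1 (73.7%), against 37% of all genes kept.

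On these normalised counts the median log2 ratio of replicate 2 to replicate 1 was 0.68 over the 57 clustered genes and 0.03 over all genes tested. By family it was 0.93 for H3, 0.67 for H2A, 0.64 for H1, 0.55 for H2B and 0.44 for H4. The median log2 ratio of replicate 3 to replicate 1 was 0.36 over the 57, and by family it was 0.75 for H1, 0.70 for H3, 0.49 for H2A, 0.33 for H4 and -0.22 for H2B. H2B was thus the family whose median was lower in replicate 3 than in replicate 1. Other values moved between the libraries as well: Malat1, a nuclear RNA, was at 612, 156 and 637 TPM and Neat1, another, at 24.8, 12.7 and 52.4 TPM, both lowest in replicate 2, where the 7SL share was highest at 62.9%. Of the other nuclear RNAs listed, Dleu2 was at 8.56, 6.84 and 8.98 TPM and Miat at 0. Xist, the RNA of the inactive X chromosome and named after its values were seen, differed most of the detected RNAs of this list, at 13.4, 0.66 and 3.42 TPM, and the sex of the animals is not recorded. Their part in the order of the histone genes was not tested.

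**Figure D3:**
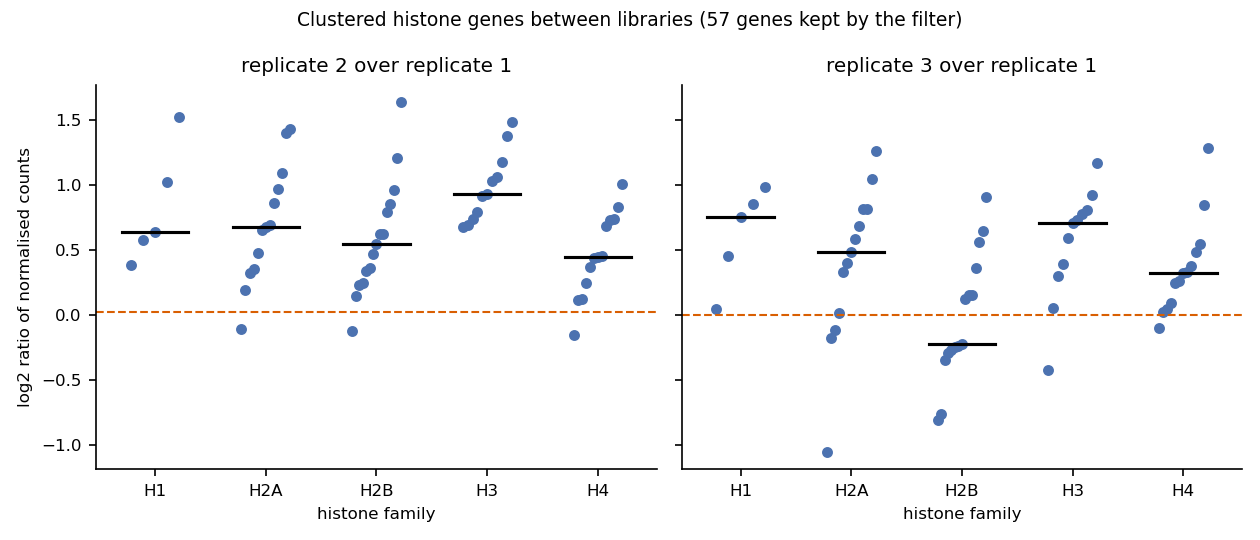
Log2 ratio of normalised read counts of replicate 2 and of replicate 3 to replicate 1 (y axis) for the clustered histone genes by family; points are genes, black bars family medians, and the orange dashed line is the median of all genes tested. Most points of replicate 2 lie above the line, while the H2B median of replicate 3 lies below it at -0.22.

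With 1 group and 3 libraries, an exact sign-flip test cannot give a p below 0.25, so no single value was tested across libraries. Instead the counts of the libraries were set against counting noise alone, with edgeR's likelihood-ratio test at a dispersion of 0 and Benjamini-Hochberg adjustment over all genes, which compares these libraries and not conditions. Of the 57 clustered genes tested, 55 passed an adjusted p of 0.05, against 71.1% of all 12372 genes. Hist1h4i (adjusted p = 0.443) and Hist1h2bl (adjusted p = 0.116) did not. Since most genes passed, the count mainly shows that these libraries differ by more than counting noise. The counts are estimates, and the test leaves out the error of splitting reads among near copies. At a dispersion of 0.01, 22 of the 57 passed (12.9% of all genes), and at 0.05, a value chosen after the data were seen, edgeR called 0 of the 57 (1.76% of all genes), with 7 at an unadjusted p under 0.05. Without replicate 1 the count at dispersion 0 was 35 of 61 (57.4%, against 52.3% of all genes) and without replicate 2 it was 34 of 57 (59.6%, against 53.4%), shares near those of all genes. Without replicate 3 it was 47 of 57 (82.5%, against 51.6%), well above the share of all genes.

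The 5 genes with the largest spread of log2(TPM + 1) among those at a mean of 1 TPM or more were Hist1h2af, Hist1h2br, Hist1h2ad, Hist1h2bq and Hist2h3b. Hist1h2af was at 0.52, 4.18 and 1.64 TPM, Hist1h2br at 2.77, 8.66 and 4.97 TPM and Hist1h2bq at 4.20, 10.3 and 6.37 TPM. Hist1h2af was not kept by the filter on low counts. Hist1h2br and Hist1h2bq have identical short models whose reads were split evenly, so their values are not independent. The authors' own SD of the estimated count was 19.3% of the count for Hist1h2af, 77.4% for Hist1h2br and 26.7% for Hist1h2bq. Hist1h2ad was at 2.84, 4.44 and 1.24 TPM. All 5 were highest in replicate 2, and 4 of them were lowest in replicate 1, the exception being Hist1h2ad. On normalised counts Hist2h3b had log2 ratios to replicate 1 of 1.37 in replicate 2 and 0.81 in replicate 3 (edgeR likelihood-ratio test at dispersion 0, adjusted p = 1.480e-27), and Hist1h2ad of 0.86 and -1.05 (adjusted p = 4.284e-13). The authors' SD, which that test leaves out, was 12.7% of the count for Hist1h2ad and 2.91% for Hist2h3b. The highest genes moved less: the log2 ratios of Hist1h2bc were 0.15 and -0.24 and those of Hist1h1c 0.38 and 0.04. The median SD of log2(TPM + 1) was 0.26 for the clustered genes at 1 TPM and 0.15 for coding genes under the same rule.

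The authors made a second quantification from the reads directly, and the levels of the clustered genes were compared between the quantifications. The ratio of each gene was also split into a part from estimated reads and a part from effective length. Why the quantifications differ in either part was not tested. TPM in the second quantification were lower for coding genes in general. The median ratio to the first was 0.504, 0.549 and 0.439 in replicates 1, 2 and 3, and ratios below are divided by that median. The family sums then moved little: the ratio was 0.944 ± 0.020 for H1, 1.02 ± 0.035 for H2A, 1.01 ± 0.016 for H2B, 1.00 ± 0.043 for H3 and 1.03 ± 0.031 for H4 (SD, n = 3). Of 56 clustered genes at a mean of 1 TPM or more, 0 were at least 2-fold higher in the second quantification in every library (3.34% of all genes tested) and 1 was at least 2-fold lower (1.71% of all). Since the reads are the same, the 3 libraries are no independent evidence for either quantification.

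The gene called lower was Hist2h3c1, an H3 gene with 1.11, 1.64 and 0.78 TPM in the first quantification and 0, 0.127 and 0 TPM in the second. Its exon sequence lies within Gm20634, a noncoding gene on the same strand, which had 537, 589 and 830 estimated reads in the first and 644, 769 and 945 in the second. The 5 pairs with identical coding sequences differed in how far the split and the sum moved. The share of Hist2h2aa2 in the sum with Hist2h2aa1 was 77.4 ± 4.33% in the first and 67.7 ± 9.19% in the second, while the ratio of their sum was 0.930 ± 0.029. For Hist1h4m and Hist1h4n the share of Hist1h4m was 59.4 ± 2.72% and 59.0 ± 2.97%, with a ratio of the sum of 0.929 ± 0.027. The sum itself moved further in 2 pairs. Hist2h3c2 held 69.4 ± 3.93% of its sum with Hist2h3c1 in the first and 97.8 ± 3.84% in the second, with a ratio of the sum of 0.670 ± 0.048. Hist1h2bq held 56.9 ± 3.03% of its sum with Hist1h2br in the first and 49.8 ± 8.84% in the second, with a ratio of 0.865 ± 0.079. Hist1h2ap held 100% of its sum with Hist1h2ao in the first and 99.1 ± 1.10% in the second (ratio of the sum 0.925 ± 0.022), and both quantifications thus gave nearly all reads to 1 of these 2 copies.

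The authors' own spread of each estimate was wider where less of a gene is its own. A median of 39.8% of the 31-base words of a clustered gene occur in no other annotated gene on either strand, from 22.9% for H2A to 96.2% for H1, with 36.9% for H3, 42.6% for H2B and 52.1% for H4. Hist2h2aa1, Hist2h2aa2, Hist2h2bb, Hist2h3b and Hist2h3c1, all in Hist2, had 0% of such words. The deposited SD of the estimated count, as a percent of the count, had a median of 6.56% in the 22 genes with less than 25% own words, 1.73% in the 30 genes with 25% to 90% and 0% in the 4 genes with 90% or more. Over these 56 genes, which share libraries and sequence, Spearman's rho of the own share and that SD was -0.72, given as a description. The median absolute log2 ratio between quantifications was 0.28, 0.09 and 0.07 in the same order of genes. Among genes with mean levels of 1 TPM or more, Hist1h2br had the highest deposited SD, at 77.4% of its count, followed by Hist1h2bq at 26.7% and Hist2h3c1 at 23.5%.

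**Figure D4:**
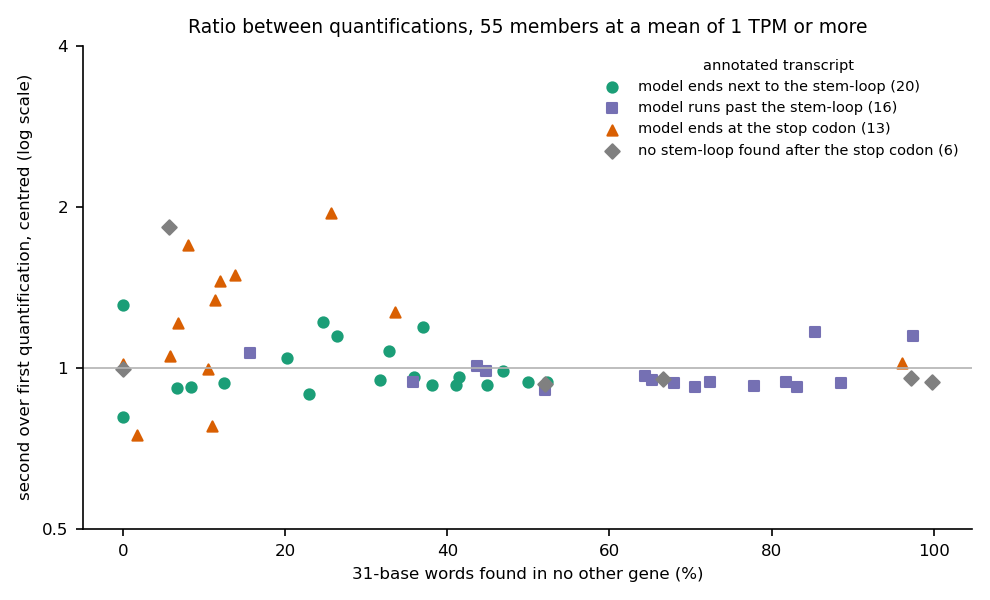
Ratio of the second quantification to the first for 55 clustered histone genes, divided by the median ratio of coding genes (y axis, log scale), against the share of a gene's 31-base words found in no other gene (x axis, %); each symbol is the geometric mean over libraries of 1 gene, and its shape and colour give where the annotated model ends. The ratios spread widely where few words are a gene's own and lie closer to 1 where most are.

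The share of TPM and the share of reads differed with where the annotated model ends. The GENCODE models of 22 genes end within 100 bases after the stem-loop, those of 22 run further past it, those of 15 end at the stop codon, and those of 8 go on but hold no match to the search, the limit of 100 bases being chosen after the models were seen. A gene with more than 1 coding model was placed in the first of these classes that any of its coding models met. Models that end next to the stem-loop gave 53.8 ± 0.78% of the TPM of the clustered genes and 29.2% of their reads. Models that run past it gave 20.6 ± 1.10% of the TPM and 46.8% of the reads, models that stop at the stop codon 13.3 ± 1.81% and 4.59%, and the rest 12.4 ± 0.74% and 19.4% (SD, n = 3). Median effective lengths in replicate 1 were 248 bases for the first class, 1021 for the second and 163 for models without sequence after the stop codon. The labels give a library size range of 250 to 400 bases, and the Hist1h4k model is 312 bases long with a mean effective length of 94.8.

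The 13 genes with a model that ends at the stop codon and a mean of 1 TPM or more differed most between the quantifications. Their ratio had a median of 1.21, from 0.748 to 1.95, and 10 of the 13 were above 1. The medians of the other classes were 0.944 for models that end next to the stem-loop, 0.942 for those that run past it and 0.955 for those without a match. The highest ratios of the class that ends at the stop codon were 1.95 for Hist1h2ak and 1.69 for Hist1h2ai, both H2A genes, 1.49 for Hist1h4k and 1.45 for Hist1h2bn. In this class the ratio of estimated reads, divided by its own median over coding genes, had a median of 1.30, from 0.528 to 2.04. The part left to effective length had a median of 0.955, from 0.584 in Hist1h2br to 1.42 in Hist1h2bq. Hist1h2bq also had the lowest ratio of estimated reads. Both genes also have longer coding models and are in this class by their short model. In the other genes of the class the length part lay between 0.845 and 0.979. For Hist1h2ak the parts were 2.04 and 0.955. Hist1h2ak, for example, was at 8.58, 15.5 and 13.5 TPM in the first quantification and at 9.74, 15.8 and 10.4 TPM in the second, where most genes had lower values.

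Hist1h2bq, Hist1h2br and Hist1h2be have more than 1 annotated transcript. Hist1h2bp and Hist2h3c1 do as well: in the first quantification Hist1h2bp-201 held 91.4 ± 14.9% and Hist2h3c1-202 100% of their genes. Hist1h2be-202, a transcript of 2480 bases, held 93.8 ± 6.26% of Hist1h2be (SD, n = 3). The short Hist1h2bq-201 and Hist1h2br-202 each have 381 bases and had the same level in each library, 2.72, 8.66 and 4.92 TPM, so the first quantification split the reads of these identical models evenly. They held 75.4 ± 9.74% of Hist1h2bq and 99.1 ± 0.90% of Hist1h2br. In the second quantification they held 87.1% and 85.2%.

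Many H2A and H2B genes lie head to head, with their starts close together on opposite strands, an arrangement in which a stretch of promoter could serve both. Of 13 such pairs among the clustered genes, 12 join an H2A and an H2B gene, and the gaps range from 175 to 659 bases. The levels within a pair were often far apart. Hist1h2bc was at 65.3 ± 8.31 TPM and its neighbour Hist1h2ac, 250 bases away, at 1.05 ± 0.11 TPM (SD, n = 3), a ratio of 62.4 by TPM and 24.9 by reads. Hist1h2ap was at 35.7 ± 5.55 TPM and Hist1h2br at 5.47 ± 2.98 TPM, and Hist1h2ae was at 4.03 ± 0.69 TPM and Hist1h2bg at 19.4 ± 3.42 TPM. H2B was the higher gene in 6 of the 12 pairs, by TPM and also by reads, H2A was higher in 5, and Hist1h2aa and Hist1h2ba were both at 0. The pairs Hist1h2bq with Hist1h2ao and Hist1h2ap with Hist1h2br depend on how reads were split among near copies. The authors' SD was 26.7% of the count for Hist1h2bq and 77.4% for Hist1h2br, and Hist1h2ao shares 93.8% of its words with Hist1h2ap. Hist2h2ac and Hist2h2be show the effect of length: 21.4 ± 4.11 against 2.12 ± 0.33 TPM, but a mean of 464 against 357 reads.

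**Figure D5:**
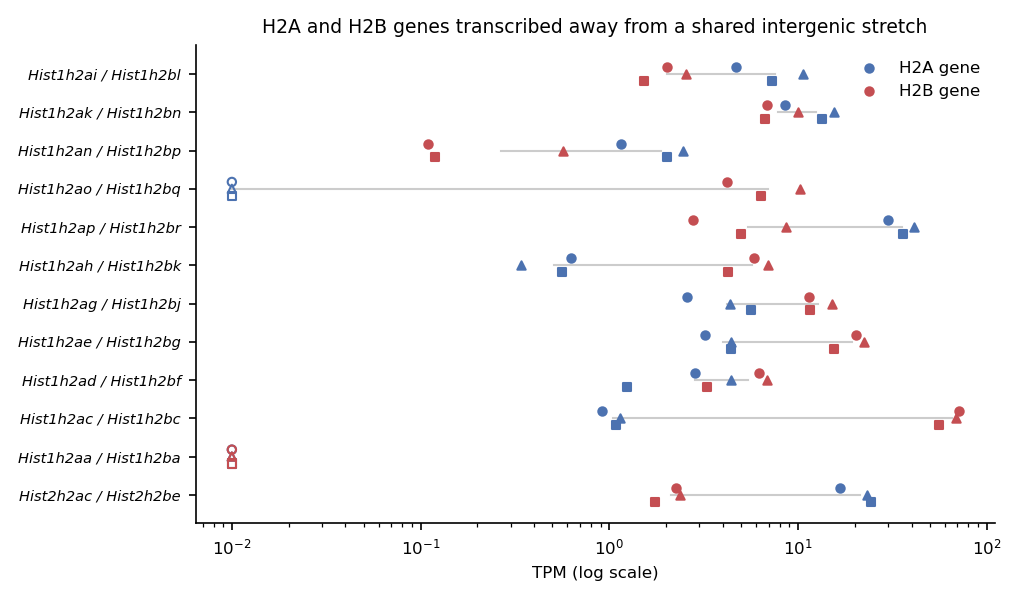
Level (x axis, TPM, log scale) of the H2A gene (blue) and the H2B gene (red) in each of the 12 head-to-head pairs; circles, triangles and squares are replicates 1, 2 and 3, grey lines join the means, and open symbols at 0.01 stand for a value of 0 (those of Hist1h2aa and Hist1h2ba lie on each other). Hist1h2ac and Hist1h2bc are far apart, at 1.05 and 65.3 TPM, and the order of H2A and H2B changes from pair to pair.

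The promoters of 62 of the 67 genes were matched in the RefSeq table of GRCm38.p6, which holds 250 bases before to 50 after each gene's start; Hist1h2bc, Hist1h3a, Hist1h3f, Hist2h2be and Hist2h4 had no match. The motif CCAAT, on either strand, was in the promoters of all 6 H1, 18 H2A, 16 H2B and 10 H3 genes matched and in 3 of 12 H4 promoters (25%), against 37.9% of all 27025 promoters of that length. TATAAA was in 35 of the 62 (56.5%), against 14.2% of all promoters, and TTTGCAT, the octamer's core, in 14 (22.6%), 7 of H2A, 6 of H2B and 1 of H4, against 4.59%. Promoters of head-to-head genes overlap and both strands were searched, so 1 site can count for both genes. This holds for TATAAA in Hist1h2an and Hist1h2bp and for TTTGCAT in Hist1h2ae and Hist1h2bg, for example. With 1 match taken per gene, TATAAA lay from -250 to 41 bases from the start. Its median position was -27.5 in H1, -32 in H2A, -31.5 in H3, -142 in H2B and -79.5 in H4. The promoter of the highest gene and that of its copy are shown because they share the 30 bases around the CCAAT motif, in capitals (GRCm38.p6, 5′ to 3′ on the gene's strand).
Hist2h2aa2, chr3:96240343-96240372 (-): gacgcgtgtgagCCAATgagagcgtcgggc
Hist2h2aa1, chr3:96245459-96245488 (+): gacgcgtgtgagCCAATgagagcgtcgggc
CCAAT begins at 14 bases from the RefSeq start in Hist2h2aa2 and at -26 in Hist2h2aa1. The RefSeq start lies 98 bases from the GENCODE start in Hist2h2aa2 and 0 in Hist2h2aa1. The windows thus cover different stretches around these shared bases. TATAAA was found at 11 in Hist2h2aa1 and not within the window of Hist2h2aa2, and motifs outside a window were not counted. Median levels did not follow the motifs in a simple way. In H4 the median was 22.0 TPM with CCAAT and 28.2 TPM without it. Over all 62 genes it was 5.76 TPM with TATAAA and 5.47 TPM without it. For TTTGCAT it was 9.145 TPM with and 5.615 TPM without the motif over all 62 genes. Within H2B the TTTGCAT medians were 9.33 and 3.99 TPM, and within H2A 4.03 and 4.20 TPM. The RefSeq start was within 10 bases of the GENCODE start in 29 of the 62, and a match is a description of these letters and not of a bound site.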

How the data were processed

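Total RNA sequencing of 3 libraries was analysed. The authors deposited, per the file headers, gene and transcript tables in the column layout of RSEM, with expected counts, TPM, the percent of each transcript in its gene and the SD and bounds of the estimates, and a second transcript table in the layout of kallisto with estimated counts and TPM. The deposited text names mm10 and GENCODE M21; the programs, their versions and the strand used were not given in the sources used here, so reads of overlapping antisense genes may not be told apart. From these values, sums, shares, ratios, means and SDs were computed (Python 3.11.15, pandas 2.3.3). Expected counts were rounded to whole numbers for edgeR 4.0.16 (R 4.3.3; TMM, filterByExpr, likelihood-ratio test at dispersion 0, Benjamini-Hochberg at 0.05). On counts simulated for 12866 genes with counting noise only, it called 167 of 200 changed genes (83.5%) and 0.0553% of the unchanged. The simulation follows the model of the test and holds no error in splitting reads, so these shares are no error rates for the real libraries. Word, stem-loop and coding searches used the GENCODE M21 transcripts. Depth was 32055936.84, 43616634.03 and 47864978.1 estimated reads in replicates 1, 2 and 3; no read intervals were made.

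Genes named by rule: in each family the lowest and the 4 highest, genes at a mean of 5 TPM or more that differ between quantifications, the 5 with the largest spread, and in each other list the lowest and the 3 highest, except that lists of cell type markers are given by counts. Other genes were named after their values were seen. The clustered genes, lists and tests were chosen with earlier results of these data known. Alternatives were another scaling, filter, level, fold and dispersion, the second quantification, and each library left out.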

Additional observations from a re-analysis of the deposited data

How the results depend on the processing

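Of 113 alternative values of 22 results, 73 stayed within the spread between libraries or within 1.5 times the main count. Values in TPM depend on what each library is scaled to. With each library rescaled to the same total over coding genes, the sums became 192.6 (H1), 975.0 (H2A), 575.4 (H2B), 221.0 (H3) and 887.8 (H4), and by cluster 2021 (Hist1), 759.6 (Hist2), 68.3 (Hist3) and 2.83 (Hist4). In the second quantification the family sums were 26.3, 144.2, 85.0, 31.7 and 131.5 as deposited and 181.7, 991.7, 580.3, 219.8 and 909.4 rescaled, and the cluster sums 2101, 715.4, 64.1 and 2.74 rescaled. The order of the family means was the same in each. Without centring, the family ratios between quantifications were 0.469, 0.507, 0.502, 0.501 and 0.513. Of 56 clustered genes, 1 differed between quantifications in the main comparison, 5 without centring, all lower (6.96% of all genes lower), and 3 at 1.5-fold, 2 higher and 1 lower (3.98% and 1.91% of all genes). With no minimum level 0 of 63 did, since values of 0, as in Hist2h3c1, then drop out (3.18% of all genes higher and 0.807% lower). With 1 library left out 0 to 2 did (2.73% to 4.53% of all genes higher and 1.81% to 1.87% lower); without replicate 1 Hist1h2ah was also higher, and without replicate 2 the mean of Hist2h3c1 fell below 1 TPM. Clustered genes beyond counting noise numbered 34 to 47 with 1 library left out (51.6% to 53.4% of all genes), where fewer libraries are compared, 22 at a dispersion of 0.01 (12.9%) and 0 at 0.05 (1.76%). Genes at 1 TPM or more in every library numbered 51, and 41 in the second quantification. Hist1h2bq-201 held 87.1% and Hist1h2br-202 85.2% in the second quantification, and models that end at the stop codon 17.6% of the TPM; the causes of these last 3 shifts were not tested. Of 63 values with 1 library left out, 59 stayed within the limits above. No paired analysis was possible because there is only 1 group.

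Depth limits the low genes: 10 of the 67 were not kept by the filter on low counts.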
